A study of Mus musculus with 8 samples.

Results

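The comparison described here is the transcriptional response of 1 mouse embryonic stem cell line to 3MB-PP1, a bulky PP1 analog designed to fit kinases whose ATP pocket has been enlarged by mutation. The line is E14, a 129/Ola mouse embryonic stem cell line, with its Gsk3b gene knocked out and a transgene for the mutant GSK3β-L132G added, an arrangement meant to let the analog inhibit the β form of glycogen synthase kinase 3 (GSK3). The cells of the inhibitor libraries spent 6 h in serum-free N2B27 medium and then had 3MB-PP1 at 5 µM for 2 h, and the untreated libraries came from cells of the same line with the same serum-free medium and no inhibitor. Both groups therefore shared the knock-out, the transgene and the serum withdrawal. The labels name no vehicle for the untreated cells, do not say which promoter drives the transgene and do not say whether the paired libraries stem from different dishes, for which reason the p-values below measure only the spread between these libraries. The line carries 1 clone name in the labels, so it stands for that clone.

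The study had 8 RNA libraries from 2 such lines, 1 for each GSK3 form, each untreated or given the inhibitor, with 2 libraries a group. Libraries were made from total RNA with a TruSeq kit that does not mark the strand. The 4 libraries of the GSK3β line are described here over 13959 genes, those with a mean of at least 1 over all 8 libraries among 17488 genes with values. The lowest mean inside that limit was 1.0005 and the highest outside it 0.9992. Values are the deposited gene counts, which the authors scaled so that the third quartile was 46.5 in every library. From the size of their smallest steps, the untreated libraries held an estimated 23.8 and 28.9 M counted reads and the inhibitor libraries 31.2 and 32.4 M, so the inhibitor libraries were the deeper ones. The part of that depth difference in the results was not tested. Replicates agreed closely, with an SD of the log2 difference between the paired libraries of 0.139 untreated and 0.118 with the inhibitor.

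GSK3 is a serine/threonine kinase that is active in resting cells. In the Wnt pathway it works in a complex with AXIN and APC that marks β-catenin for destruction, and when GSK3 is held back β-catenin collects and lifts the repression that TCF7L1 places on its targets. GSK3 also phosphorylates MYC, cyclins, glycogen synthase, eIF2B, the lysosomal regulators TFEB and TFE3, and proteins that bind microtubules. In mouse embryonic stem cells, inhibitors of GSK3 are used together with an inhibitor of the MEK/ERK pathway to hold cells in the naive state, the state of the preimplantation epiblast, and away from the formative and primed states that precede differentiation.

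Gsk3b itself had values of 235 and 256 in the untreated and 258 and 249 in the inhibitor libraries. Gsk3a, the other form, had 77.9 and 76.2 in the untreated and 77.6 and 79.9 in the inhibitor libraries, and Ctnnb1, which encodes β-catenin, had 879 and 881 in the untreated and 841 and 855 in the inhibitor libraries. None of the 3 passed the test, and their log2 changes were 0.046, 0.031 and -0.053. These gene totals cannot separate the transgene from what is left of the knocked-out locus, so they check neither. The cells had the markers of embryonic stem cells. Pou5f1, which encodes OCT4, had 1478 and 1442 in the untreated and 1405 and 1397 in the inhibitor libraries, and Sox2, its partner, had 345 and 343 in the untreated and 329.8 and 331 in the inhibitor libraries. Neither passed the test.

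Across the 13959 genes, 2084 differed between the inhibitor and untreated libraries at an adjusted p below 0.05 (limma on log2(value + 1), Benjamini-Hochberg adjustment), which is 14.9% of the genes tested. Of these, 1046 rose (7.49%) and 1038 fell (7.44%), the shares beside which the list counts below are to be read. Both shares were larger at high values, 13.3% and 10.8% in the highest of 4 equal groups by mean value. Most of the changes were small. The median log2 change was 0.23 among the genes that rose and -0.23 among those that fell, against -0.0057 over all genes and a median standard error (SE) of 0.063. On the log2(value + 1) scale, only 143 genes passed the test with a change of at least 1.5-fold (1.02%), 77 up and 66 down. On that scale 14 of them reached 2-fold, 7 in each direction. The scale understates the change of low genes, so some genes outside these 14 reached 2-fold in mean value, such as Chac1 (2.16-fold). In all 2084 genes the 2 inhibitor libraries lay on 1 side of both untreated libraries. That separation alone was common: 27.3% of all genes had both inhibitor libraries above and 30% had both below. The counts leaned on single libraries. They were 610 up and 571 down without the first untreated library and 443 up and 421 down without the first inhibitor library, and 711 genes (382 up and 329 down) passed whichever of the 4 libraries was left out.

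**Figure D1:**
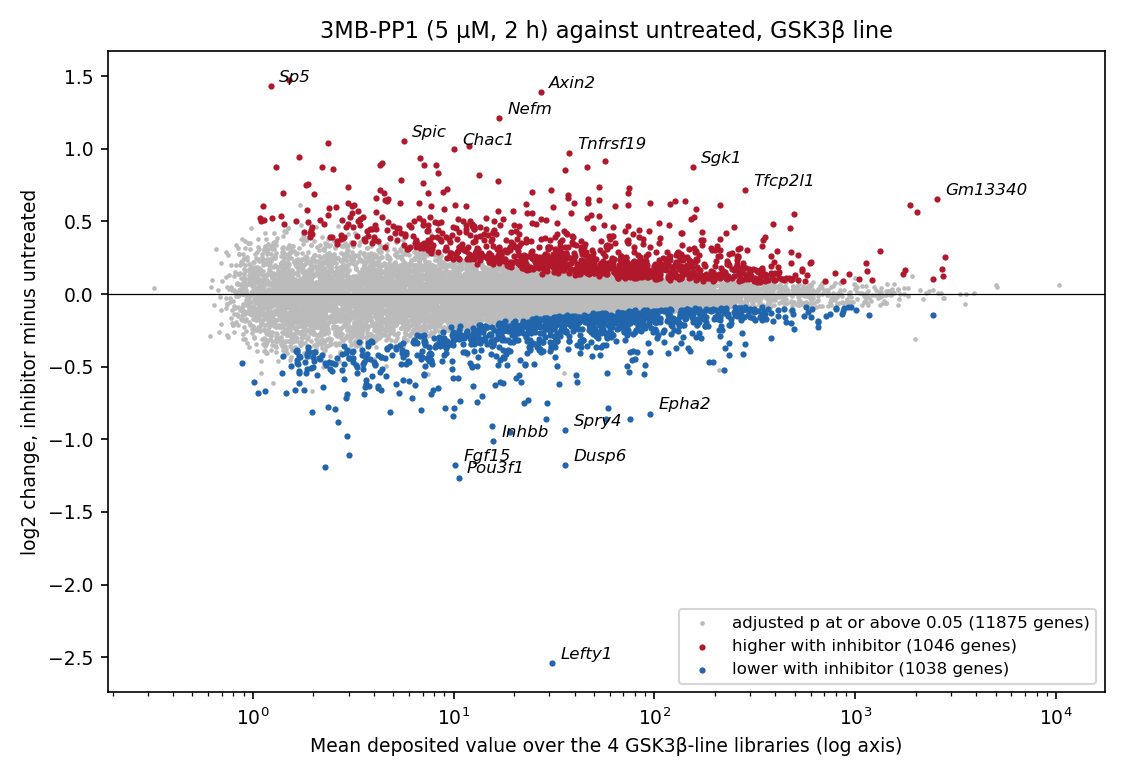
Each point is a gene. The horizontal axis is its mean deposited value over the 4 GSK3β-line libraries on a log scale, and the vertical axis is its log2 change on the log2(value + 1) scale. Red points are the 1046 genes that rose, blue points the 1038 that fell and grey points the 11875 that did not pass. Lefty1 lies alone at -2.54, while Axin2 and Sp5 are among the largest rises.

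**Figure D2:**
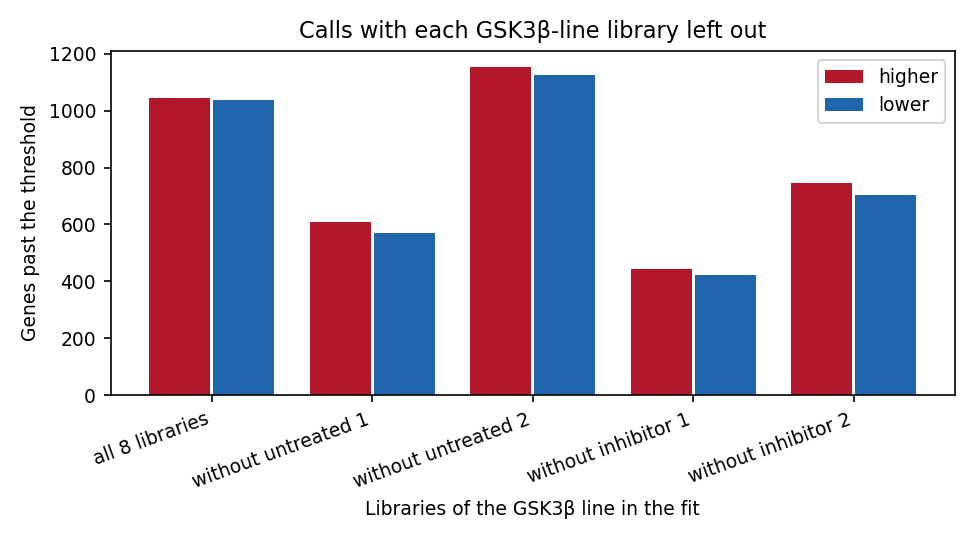
Bars give the number of genes past the threshold that rose (red) or fell (blue) in the GSK3β line with all 8 libraries and with each GSK3β-line library left out. The lowest bars, 443 and 421, are those without the first inhibitor library.

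Axin2 and 3 further Wnt target genes rose. Axin2, a scaffold of the destruction complex and the most widely used Wnt target, had the largest rise among genes with a group mean of at least 5. Its values went from 13.99 and 15.1 to 38.4 and 41.3 (log2 change 1.39, SE 0.065, adjusted p 5.66e-11), and the groups lay far apart. Sp5, a zinc-finger factor that is itself a Wnt target, was nearly absent in untreated cells and went from 0.156 and 0.256 to 2.097 and 2.41, a log2 change of 1.43 (SE 0.16, adjusted p 4.03e-06). At these low values the size of that change depends on the pseudocount, and it ran from 0.48 to 3.36 over the settings that tested it, with the call kept in each. Tnfrsf19, also called Troy, a receptor of the TNF family that marks Wnt-responsive stem cells, rose from 23.7 and 26.4 to 49.9 and 49.9 (log2 change 0.97, adjusted p 8.92e-10). Sp8, a relative of Sp5, rose from 0.821 and 0.865 to 2.19 and 1.78 (log2 change 0.69, adjusted p 0.00203), a call lost without the first inhibitor library.

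The other tested Wnt targets on the list did not follow as a group. Of 19 tested targets, 4 rose (21.1%) and 3 fell (15.8%), with a median log2 change of 0.096, where 7.49% and 7.44% of all genes did so. Of those that rose, Sp5 and Sp8 lay under the mean limit of 1 in the untreated libraries. Higher values elsewhere therefore helped bring both into this count. The list also had 3 members under the limit on the mean. Cdx2 and Dkk1, known Wnt targets under that limit, were not tested here and are described in a later section. T (brachyury), the primitive streak factor, had 0.586 and 0.93 in the untreated and 1.05 and 0.804 in the inhibitor libraries and missed the threshold with a log2 change of 0.14 (95% interval -0.16 to 0.43). Nkd1, a feedback inhibitor, and Cdx1, a posterior patterning factor, had log2 changes of 0.27 and 0.27 and did not pass either. Lef1, a TCF-family factor, fell from 16.2 and 14.7 to 9.54 and 9.65 (log2 change -0.63, adjusted p 1.93e-05). Myc, a transcription factor of growth that GSK3 marks for destruction as a protein, fell from 37.4 and 37.2 to 20.1 and 20.1 (log2 change -0.86, adjusted p 4.79e-08). The third target that fell was Ccnd1, by 0.12 on the log2 scale, and its call was lost without the first untreated or the first inhibitor library.

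Most of the pathway's own components did not pass the test. Of 40 tested ligands, receptors, destruction complex members and nuclear partners, 5 rose (12.5%) and 1 fell (2.5%), with a median log2 change of 0.024. Fzd8, a Wnt receptor, rose from 3.13 and 3.301 to 6.004 and 5.63 (log2 change 0.69, adjusted p 0.00016). Fzd10, another receptor, rose by 0.35, and the co-repressors Tle1 and Tle3 by 0.31 and 0.21, while the co-repressor Tle4 fell by 0.30. Tcf7l1, the main TCF repressor of these cells, had a log2 change of -0.051, and Apc and Axin1 of 0.023 and 0.072. None of those 3 passed.

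Sp5 and Tnfrsf19 were also the Wnt targets whose promoters held the TCF/LEF letters CTTTGAT. The promoters are RefSeq sequences of GRCm38.p6, the build mm10, from 250 bases before to 50 bases after each start, searched on both strands. Of 12 tested targets with a promoter 2 held the letters (16.7%), against 2.89% of 10126 tested genes with a promoter. Both were among the 4 targets that rose, and Axin2 and Sp8 did not hold them. Among all 750 genes that rose and had a promoter the share was 3.47%, and among 769 that fell 2.08%. Sgk1, a kinase described below, was among the 26 genes that rose and held the letters. So were Krtdap, Bcat1 and Slc7a1, which are not shown. Stretches run 5′ to 3′ in the direction of the gene with the match in capitals. Those of Sp5, Tnfrsf19 and Sgk1 are shown, to let a reader compare the 3 sites. They lie at chr2:70474793-70474851, chr14:61038157-61038215 and chr10:21978467-21978525, all upstream of the start they belong to.
Sp5: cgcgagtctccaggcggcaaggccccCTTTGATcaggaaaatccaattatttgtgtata
Tnfrsf19: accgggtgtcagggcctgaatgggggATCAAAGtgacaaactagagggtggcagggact
Sgk1: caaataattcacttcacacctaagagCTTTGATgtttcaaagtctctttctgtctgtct
The match in Tnfrsf19 is on the strand opposite to the gene, so it reads there as the reverse complement. A match is a description of the letters and not a binding site, and the window leaves out introns and distant enhancers.

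**Figure D3:**
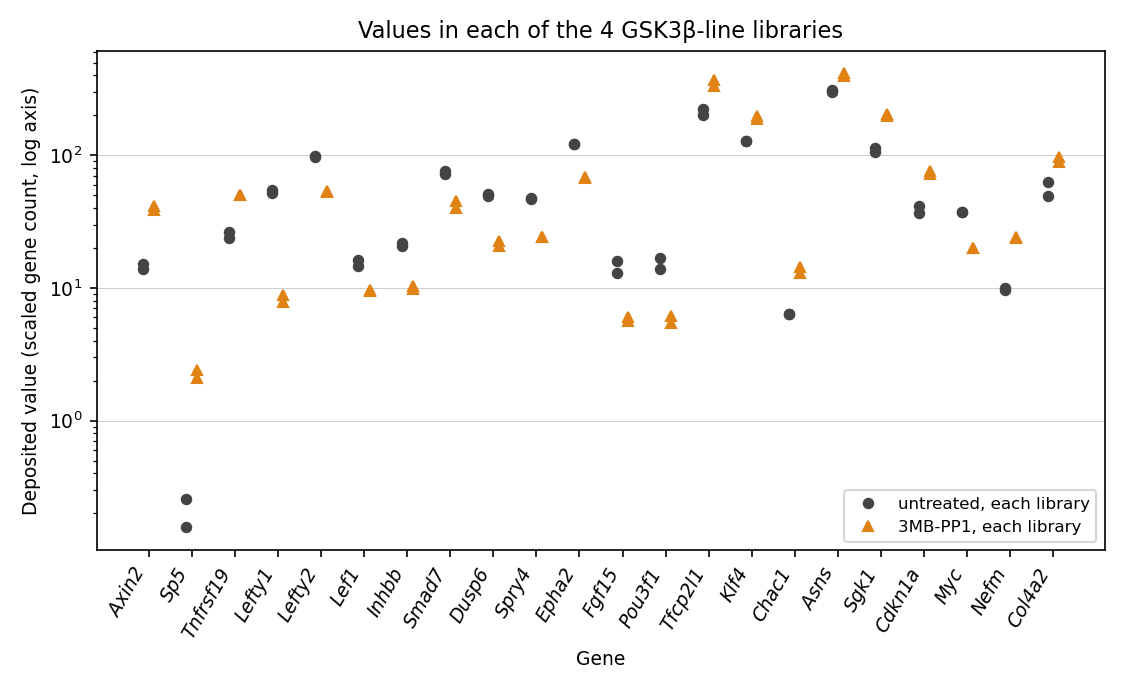
Values of 22 genes described in the text, on a log axis, in the 2 untreated libraries (grey circles) and the 2 libraries with 3MB-PP1 (orange triangles). In every gene shown the triangles lie wholly above or wholly below the circles, and the gap is widest for Sp5 and Lefty1.

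On the log2(value + 1) scale the strongest change of all was in the Nodal pathway, and it was downward. Nodal and Activin signal through SMAD2 and SMAD3, which switch on their own extracellular antagonists Lefty1 and Lefty2 as feedback. Lefty1 fell from 54.9 and 51.8 to 7.83 and 8.86 (log2 change -2.54, SE 0.07, adjusted p 2.04e-14). This was the largest change in either direction on the log2(value + 1) scale among the 13959 genes. In mean value Lefty1 fell 6.39-fold, while Sp5, at its low values, rose 10.9-fold. Lefty2, at 98.3 and 97.2 in the untreated and 53.96 and 52.98 in the inhibitor libraries, fell by 0.86 (adjusted p 5.04e-10). Lefty1 lies at chr1:180935022-180938400 and Lefty2 at chr1:180893108-180899103.

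Other genes that SMAD2/3 signalling is known to drive fell with them. Smad7, the inhibitory SMAD, fell from 72.2 and 76.3 to 45.1 and 40.2 (log2 change -0.79), Pmepa1, which blocks SMAD activation, fell by 0.70, and Skil, a SMAD co-repressor, by 0.50. Among the ligands, Inhbb, the subunit of Activin B, fell from 20.9 and 21.8 to 9.85 and 10.3 (log2 change -1.01, adjusted p 2.64e-09). The ligands Nodal and Gdf3 did not pass, with log2 changes of 0.11 and -0.034, though Nodal passed as higher with median-of-ratios scaling, with a mean limit of 5 and without the first untreated library. Tdgf1, their co-receptor, fell by 0.24.

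Of 26 tested Nodal and SMAD2/3 genes, 11 fell (42.3%) and 3 rose (11.5%), with a median log2 change of -0.15. The count of those that fell stayed between 9 and 11 when each of the 4 libraries was left out. The 3 that rose were Fst, a secreted antagonist of Activin, which rose from 4.495 and 5.71 to 8.98 and 7.81 (log2 change 0.63), Pcsk6, a convertase that cleaves Nodal precursors, by 0.42, and the receptor gene Acvr1b by 0.20, a call lost without the first untreated or the first inhibitor library.

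Genes that report ERK activity changed unevenly. ERK signalling from FGF receptors induces its own inhibitors, chiefly dual-specificity phosphatases and Sprouty proteins. Dusp6, the phosphatase that switches off ERK, fell from 51.1 and 49.3 to 20.7 and 22.7 (log2 change -1.17, SE 0.051, adjusted p 2.15e-11). Spry4, a Sprouty inhibitor, fell from 47.8 and 47.1 to 24.4 and 24.4 (log2 change -0.93, adjusted p 2.01e-10), and Epha2, an ephrin receptor, fell from 122 and 121 to 67.9 and 68.6 (log2 change -0.82, adjusted p 9.1e-12). In each of the 3 the groups were far apart and the replicates close together.

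Several ERK-responsive genes did not fall with these. Etv4, an ETS factor induced by FGF, had a log2 change of 0.12 that passed only with median-of-ratios scaling or without the second untreated library, and Etv5, its relative, rose by 0.21. Spry1, Spred1 and Dusp1 did not pass, with log2 changes of -0.018, -0.0011 and -0.17, though Dusp1 passed as lower with limma-voom and without the second untreated library. Dusp14, another phosphatase, rose from 4.69 and 5.26 to 8.86 and 9.45 (log2 change 0.77), and Epha4, an ephrin receptor, rose from 40.8 and 41.4 to 66.2 and 63.4 (log2 change 0.64). Over the list of 26 feedback inhibitors and ETS factors, 3 rose (11.5%) and 6 fell (23.1%), with a median of -0.083. Those that fell numbered 3 without the second inhibitor library, and those that rose 5 without the second untreated library or with median-of-ratios scaling.

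Among the FGF genes themselves few passed, in both directions. Fgf15, an FGF of the endocrine branch that is expressed in the early neural plate, fell from 16.01 and 13.01 to 6.05 and 5.62 (log2 change -1.18, adjusted p 1.97e-07). Its neighbour Fgf4, the main FGF ligand of embryonic stem cells, fell from 267 and 256 to 179 and 185 (log2 change -0.52, adjusted p 1.78e-09). Fgf5, the marker of the postimplantation epiblast, fell from 4.53 and 3.94 to 1.502 and 1.81 (log2 change -0.98, adjusted p 1.36e-05). Flrt3, a membrane protein that binds FGF receptors, rose from 1.25 and 1.73 to 3.42 and 3.59 (log2 change 0.86, adjusted p 0.00028). The receptor Fgfr2 and the adaptor Frs2 did not pass. Of 22 tested FGF genes 2 rose and 3 fell (9.09% and 13.6%, against 7.49% and 7.44% of all genes). The other that rose was the receptor gene Fgfr1, by 0.11, a call lost under 11 alternatives, among them leaving out the first untreated library or either inhibitor library.

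Immediate early genes, which cells switch on within minutes of growth factor signals, were more often lower than higher. Of 23 tested, 9 fell (39.1%) and 2 rose (8.7%), with a median log2 change of -0.13. Zfp36, which destabilises messages with AU-rich tails, fell from 4.98 and 4.62 to 2.55 and 2.92 (log2 change -0.64, adjusted p 0.000561). Junb, a subunit of AP-1, fell from 11.3 and 12.1 to 7.45 and 8.33 (log2 change -0.52). Fos and Egr1, the members most often used as ERK reporters, did not pass. Fos had 2.42 and 1.699 in the untreated and 2.01 and 1.69 in the inhibitor libraries and Egr1 had 1.25 and 0.833 in the untreated and 1.38 and 1.35 in the inhibitor libraries, and the Egr1 groups did not overlap. The rises were Atf3, described below, and Klf10, by 0.35.

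Genes of naive and of primed pluripotency mostly changed in opposite directions. Of 33 naive pluripotency genes, 17 rose (51.5%) and 5 fell (15.2%), with a median log2 change of 0.13. Tfcp2l1, a naive factor that is a known target of β-catenin and TCF7L1, rose from 203 and 223 to 366 and 334 (log2 change 0.72, SE 0.044, adjusted p 1.78e-09). Klf4, which with Tfcp2l1 can hold cells in the naive state, rose from 128 and 128 to 197 and 189 (log2 change 0.59, adjusted p 5.04e-10), and Klf2 and Klf5 rose by 0.53 and 0.35. Tfap2c, a factor of naive and germ cells, rose from 22.7 and 28.3 to 49.99 and 43.3 (log2 change 0.85), and Prdm14, which represses FGF signalling and DNA methylation, rose from 36.8 and 38.4 to 57.6 and 51.3 (log2 change 0.52). Nr5a2, a nuclear receptor that binds the Pou5f1 gene, rose by 0.38.

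The core of the network changed little. Esrrb, a nuclear receptor known as the main TCF7L1 target in these cells, rose from 541 and 573 to 658 and 638 (log2 change 0.22, adjusted p 0.000107). Nanog rose from 868 and 897 to 987 and 955, by only 0.14, and its call was lost without the first inhibitor library. Zfp42 (Rex1) did not pass, with a log2 change of 0.039. The naive genes that fell were Dnmt3l, Dppa4, Utf1, Dppa2 and Nr0b1, from -0.41 to -0.14 on the log2 scale, the last of these not without the first inhibitor library. Dnmt3l, a cofactor of DNA methylation, overlaps Aire, which fell by 0.84, and the libraries do not mark strand, so reads in the shared stretch cannot be assigned to 1 of the pair.

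At the other end, formative and primed epiblast genes fell. Of 28 tested, 20 fell and 1 rose, with a median log2 change of -0.36, and the number that fell was between 17 and 20 with each library left out. Pou3f1 (Oct6), a POU factor of the primed epiblast and early neural cells, fell from 16.8 and 13.9 to 5.46 and 6.15 (log2 change -1.26, SE 0.1, adjusted p 6.04e-08). Enpp2, a secreted lipid enzyme, fell from 4.96 and 3.94 to 1.14 and 1.95 (log2 change -1.11), and Grhl2, a factor that opens epithelial enhancers on exit from the naive state, fell from 29.6 and 29.3 to 16.6 and 18.3 (log2 change -0.73). Otx2, the factor that directs enhancers in that exit, fell from 67.1 and 70.5 to 47.9 and 45.8 (log2 change -0.54, adjusted p 4.15e-08).

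Smaller falls ran through most of that list. The zinc-finger factors Zic2 and Zic5 fell by 0.23 and 0.28, Sall2 by 0.48, Sox3 by 0.44 and Foxd3 by 0.29. Zic2 and Sox3 did not pass without the first inhibitor library, nor Sox3 without the second untreated library. Tcf15, a factor linked to priming that was not on the list, fell from 25.8 and 25.3 to 12.5 and 12.98 (log2 change -0.95, adjusted p 3.76e-09). Cdh2 (N-cadherin), Sox11 and Lin28b did not pass, with log2 changes of 0.029, -0.12 and -0.16. The list shares Dusp6, Fgf5, Fgf15, Lef1 and Myc with lists above, so it is no separate evidence for those 5 genes.

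**Figure D4:**
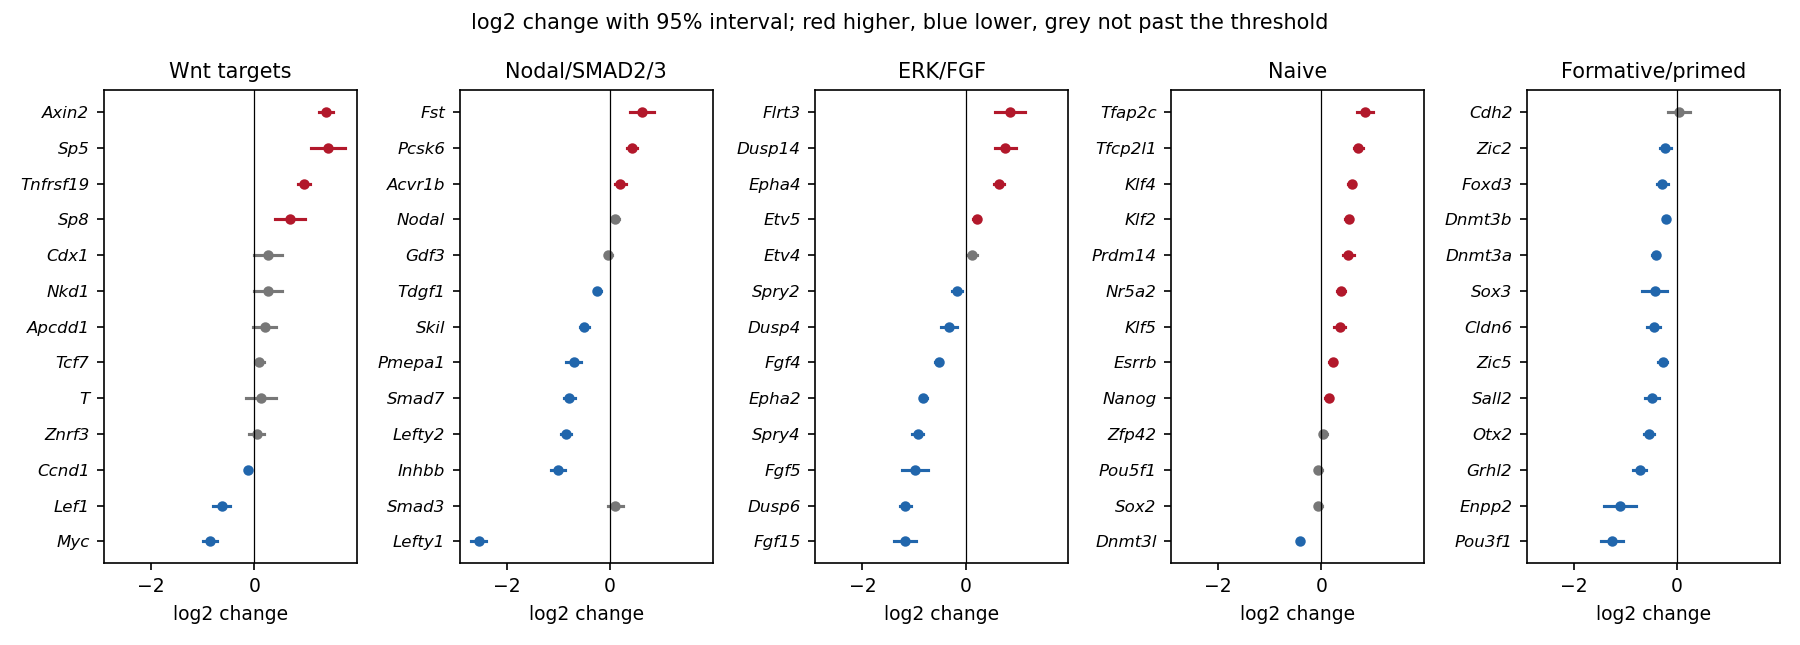
log2 change of 13 members of each of 5 gene groups, with bars for the 95% interval, on a common horizontal axis. Red members rose, blue fell and grey did not pass, and the members shown were chosen to include those named in the text. The naive panel lies mostly to the right of 0 and the formative panel mostly to the left, with Pou3f1 at -1.26.

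Enzymes of DNA methylation changed in part. Dnmt3a, a methyltransferase that sets new methyl marks, fell from 269 and 271 to 199 and 205 (log2 change -0.42, adjusted p 1.14e-08), and Dnmt3b, its partner enzyme, fell from 254 and 257 to 219 and 223 (log2 change -0.21, adjusted p 5.39e-05). Dnmt1, which copies existing marks, and Uhrf1, which guides it, did not pass, with log2 changes of 0.043 and -0.011. Tet2, an enzyme that oxidises methyl marks, rose by 0.19. Of 20 genes on this list, 5 fell (25%) and 1 rose (5%).

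In the LIF pathway, the other support of naive cells, the change at the receptor was in its shared chain. Il6st (gp130), the shared signalling chain of the LIF receptor, rose from 55.9 and 60.4 to 91.4 and 87.2 (log2 change 0.61, adjusted p 7.09e-09), and Il6ra, a receptor chain that pairs with it, rose from 10.9 and 11.5 to 16.7 and 14.96 (log2 change 0.46). Lifr itself and Socs3, the feedback gene most used to report STAT3 activity, had log2 changes of -0.011 and -0.0043 and did not pass. Of 23 genes of this pathway 3 rose (13%) and 3 fell (13%), against 7.49% and 7.44% of all genes. Stat3 rose by 0.19, and that call was lost without either untreated library or without the first inhibitor library. Pim3, a kinase gene, fell by 0.40, and those that fell numbered 1 without the first inhibitor library.

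ID proteins, which bind and silence bHLH factors and are classic BMP targets, did not move as a family. Id3 rose from 36.7 and 34.97 to 55.99 and 58.2 (log2 change 0.66, adjusted p 4.32e-09), and Id4 rose from 6.14 and 6.83 to 11.6 and 10.8 (log2 change 0.71). Id1 fell from 9.89 and 9.36 to 7.24 and 7.96 and Id2 fell from 4.105 and 3.88 to 2.55 and 2.56, with log2 changes of -0.31 and -0.49, and both calls were lost without the first untreated or the first inhibitor library. Msx2, a homeobox gene that BMP induces, rose from 1.25 and 1.03 to 2.79 and 2.44 (log2 change 0.76), while Smad6, the inhibitory SMAD of the BMP branch, did not pass except as lower with limma-voom. Of 18 tested ID and BMP genes 4 rose (22.2%) and 2 fell (11.1%).

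In the MYC network, 3 of 16 genes fell (18.75%) and none rose. Besides Myc they were Mxd4, an antagonist that competes for the partner MAX, which fell from 21.4 and 21.7 to 13.03 and 14.4 (log2 change -0.61), and Mxd3, which fell by 0.30 and did not pass without the first untreated or the first inhibitor library. Mycn, the other MYC gene of these cells, had 130.4 and 129.9 in the untreated and 126 and 129.9 in the inhibitor libraries and did not pass.

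Of 27 ATF4 and stress regulators, 10 rose (37%) and 3 fell (11.1%), with a median log2 change of 0.099. ATF4 is a transcription factor that cells make when eIF2α is phosphorylated, for example when amino acids run short, and it raises genes for amino acid supply. Chac1, which breaks down glutathione and is among the most sensitive ATF4 targets, rose from 6.37 and 6.31 to 14.5 and 12.9 (log2 change 0.998, SE 0.087, adjusted p 2.03e-07). Ddit3 (CHOP), a stress factor downstream of ATF4, rose from 11.8 and 12.2 to 21.8 and 20.8 (log2 change 0.78, adjusted p 2.14e-06), and Trib3, a feedback inhibitor of ATF4, rose from 18.7 and 20.5 to 29.1 and 29.5 (log2 change 0.56). Nupr1 and Atf3, both stress-induced regulators, rose by 0.72 and 0.64. Atf4 itself rose from 189 and 189.9 to 230.1 and 237 (log2 change 0.30, adjusted p 3.25e-06).

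Not every gene of this group rose. Cebpd, a CEBP factor, fell from 5.58 and 5.85 to 3.51 and 3.55 (log2 change -0.57). The 4 kinases that phosphorylate eIF2α (Eif2ak1, Eif2ak2, Eif2ak3 and Eif2ak4) did not pass, with log2 changes between -0.056 and 0.035. Genes of the wider unfolded protein response did not go along. Of 27 chaperones and sensors of the endoplasmic reticulum 1 rose (3.7%) and 2 fell (7.41%), against 7.49% and 7.44% of all genes. Hspa5 (BiP) had 575 and 556 in the untreated and 558 and 562 in the inhibitor libraries without passing. Xbp1, a factor of that response, fell by 0.26.

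Genes that supply amino acids mostly rose. Of 42 genes for amino acid synthesis, transport and tRNA charging, 27 rose and 3 fell, with a median log2 change of 0.17 against -0.0057 over all genes, and the number that rose was 19 to 25 with each library left out. Asns, asparagine synthetase, rose from 302 and 310.0 to 414 and 393 (log2 change 0.40, SE 0.032, adjusted p 5.76e-08). Psat1 and Phgdh of serine synthesis rose by 0.31 and 0.17, and Mthfd2 and Shmt2 of the mitochondrial folate cycle by 0.33 and 0.13. Phgdh and Shmt2 did not pass without the first inhibitor library, nor Shmt2 without either untreated library or either inhibitor library of the other line. Bcat1, which moves amino groups between branched-chain amino acids and glutamate, rose from 383 and 412 to 561 and 529 (log2 change 0.46).

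Among transporters and tRNA synthetases most of the calls were rises. The cationic transporter gene Slc7a1 rose from 110.0 and 122 to 159 and 152 (log2 change 0.42), Slc1a4 and Slc1a5 of neutral amino acids by 0.42 and 0.22, and Slc7a5 and Slc3a2, which form 1 transporter, by 0.21 and 0.19. The cytosolic synthetase genes Sars, Aars and Iars rose by 0.31, 0.27 and 0.26, while Kars, Dars and Qars, with log2 changes of 0.030, 0.029 and 0.040, did not pass. Slc38a2, a transporter that amino acid shortage induces, fell from 325 and 308 to 249 and 249 (log2 change -0.34, adjusted p 4.05e-07). The other falls were Cth of cysteine synthesis and the arginine and lysine transporter gene Slc7a3, by 0.21 and 0.19. Slc7a11, the cystine transporter gene, had a log2 change of 0.092 and did not pass.

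Some promoters of these genes held the letters TGATGNAA, the composite element of ATF4 and its CEBP partners. They were in 7 of 23 tested ATF4 and stress regulators with a promoter in the RefSeq table and in 10 of 30 tested amino acid genes. Of 9 ATF4 regulators that rose, 6 held a match, as did 9 of 20 amino acid genes that rose, against 2.59% of the 10126 tested genes with a promoter and 4.51% of all 27025 genes with one. Among all 750 genes that rose and had a promoter the share was 5.07%, and among 769 that fell 2.86%. The stretches below show 6 of them, with the match in capitals, 5′ to 3′ in the direction of the gene. They lie at chr2:119351023-119351082, chr1:191183410-191183469, chr7:126625547-126625606, chr6:7693210-7693258, chr8:111033704-111033763 and chr11:120643818-120643877, each upstream of the start.
Chac1: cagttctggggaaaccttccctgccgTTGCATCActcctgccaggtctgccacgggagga
Atf3: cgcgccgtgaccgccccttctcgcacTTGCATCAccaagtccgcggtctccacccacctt
Nupr1: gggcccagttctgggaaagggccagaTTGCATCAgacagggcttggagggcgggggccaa
Asns: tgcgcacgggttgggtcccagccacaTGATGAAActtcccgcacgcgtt
Aars: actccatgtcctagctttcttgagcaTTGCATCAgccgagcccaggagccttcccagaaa
Pycr1: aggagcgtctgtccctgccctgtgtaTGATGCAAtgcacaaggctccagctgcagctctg
In Chac1, Atf3, Nupr1 and Aars the match is on the opposite strand and is printed as its reverse complement, and in Asns and Pycr1 it is on the strand of the gene. Pycr1, of proline synthesis, rose by 0.23 on the log2 scale, a call lost without either untreated library or without the first inhibitor library.

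Genes of the lysosome tended upward. GSK3 is known to keep TFEB and TFE3, the factors that drive lysosomal genes, in the cytosol. Of 33 lysosomal genes and TFE3/TFEB pathway members, 15 rose (45.5%) and 1 fell (3.03%), with a median of 0.14. The count that rose was 7 without the first inhibitor library. Gaa and Hexa, which break down glycogen and gangliosides, rose from 82.5 and 85.04 to 109.6 and 101 and from 37.7 and 39.3 to 48.8 and 46.6 (log2 changes 0.33 and 0.30). The protease gene Ctsl rose from 117 and 118 to 148 and 140.2 (log2 change 0.29, adjusted p 2.26e-05), and Rragd, a GTPase gene that TFEB induces, rose from 37.6 and 34.4 to 45.5 and 45.8 (log2 change 0.34). Tfe3 itself rose by 0.18. The E-box letters CACGTG, the core that TFEB-type factors bind, were in the promoters of 4 of 12 lysosomal genes that rose and of 12 of all 27 with a promoter, against 11.8% of tested genes. Autophagy genes were not drawn along, with 3.7% of those tested up and 11.1% down. Of 27 tested, 1 rose, Ulk1, the kinase that starts autophagy, by 0.38, and 3 fell, of which none passed without the first inhibitor library.

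Sugar metabolism genes changed in both directions, with 16.2% of those tested up and 21.6% down. Slc16a3 (MCT4), the exporter of lactate, fell from 75.3 and 72.5 to 38.3 and 42.4 (log2 change -0.86, adjusted p 5.04e-10), and Bnip3, a mitophagy receptor that hypoxia induces, fell from 43.5 and 37.6 to 25.4 and 26.7 (log2 change -0.62). The glucose transporter gene Slc2a1 fell from 239 and 229 to 189 and 195 (log2 change -0.29) while Slc2a3 rose from 1152 and 1226 to 1466 and 1447 (log2 change 0.29). The glycolytic enzyme genes Pfkp and Hk2 rose by 0.37 and 0.24. Pgk1, another enzyme gene of glycolysis and 1 of the reference genes below, fell by 0.11. That call was lost without the first untreated or either inhibitor library. Vegfa, the vascular growth factor, rose from 17.04 and 17.5 to 24.9 and 22.5 (log2 change 0.43). Of 37 tested genes 6 rose and 8 fell, and those that fell numbered 5 without the first untreated and 4 without the first inhibitor library.

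Glycogen metabolism, from which GSK3 takes its name, hardly changed at the level of RNA. Gys1, the glycogen synthase that GSK3 phosphorylates, had 27.9 and 29.4 in the untreated and 27.2 and 28.9 in the inhibitor libraries and missed the threshold with a log2 change of -0.030 (95% interval -0.15 to 0.087). Of 19 tested genes 1 rose (5.26%) and 0 fell. That 1 was Pgm1, by 0.15, and leaving out any of the 4 libraries ended its call.

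Genes of cell division were lower by small amounts. Of 41 mitotic and G2/M genes 27 fell and none rose, with a median log2 change of -0.12. Aurka, the kinase of the spindle poles, fell from 198 and 189 to 167 and 165 (log2 change -0.22, adjusted p 0.000107), and Ccnb1 (cyclin B1) fell from 585 and 581 to 523 and 526 (log2 change -0.15). The widest fall was in Cdc25b, a phosphatase that opens mitosis, by 0.25. The count that fell was 17 without the first untreated and 10 without the first inhibitor library.

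Among replication and G1/S genes the calls were falls as well. Of 42 tested, 16 fell (38.1%) and none rose, with a median of -0.11. E2f2, an E2F factor, fell from 21.8 and 17.5 to 12.7 and 14.6 (log2 change -0.49, adjusted p 0.000428), and E2f8 fell by 0.38. The helicase genes Mcm2, Mcm3 and Mcm4 did not pass, with log2 changes of -0.022, 0.026 and 0.017. The count that fell was 6 without the first untreated library, 6 without the first inhibitor library and 8 without the second inhibitor library.

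The CDK inhibitors parted. Cdkn1a (p21) rose from 41.6 and 36.4 to 76.5 and 72.2 (log2 change 0.92, SE 0.053, adjusted p 8.36e-10). Cdkn1c (p57), an imprinted gene, fell from 31.5 and 25.2 to 16.3 and 16.4 (log2 change -0.75, adjusted p 2.79e-06). Ccng2, an unusual cyclin that goes with cell cycle arrest and is a FOXO target, fell from 21.2 and 19.7 to 10.3 and 10.5 (log2 change -0.91, adjusted p 1.73e-08), and Ccne2 (cyclin E2) fell by 0.38. Of 20 cyclins, CDKs and inhibitors 1 rose (5%) and 8 fell (40%), and 4 of them fell without the first inhibitor library.

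Cdkn1a stood apart from the other p53 targets. Of 29 tested p53 targets 9 fell (31%) and 2 rose (6.9%), Cdkn1a and Tigar, the latter by 0.28. Bbc3 (PUMA), which promotes cell death, fell from 37.3 and 39.4 to 26.2 and 27.7 (log2 change -0.49, adjusted p 1.31e-05), and Btg2, an antiproliferative gene, fell from 90.5 and 87.6 to 65.8 and 69.7 (log2 change -0.39). Mdm2, which degrades p53, fell by 0.21, and Trp53, which encodes p53, did not pass. In the BCL2 family, Bcl2l11 (BIM) fell from 26.8 and 26.6 to 19.7 and 20.1 (log2 change -0.41) and the survival gene Mcl1 fell from 433 and 409 to 338 and 343 (log2 change -0.31). Of 25 family members and caspases 5 fell (20%) and 2 rose (8%), against 7.44% and 7.49% of all genes. None rose without the first inhibitor library.

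Sgk1, a kinase related to AKT that growth factors and steroids induce, rose from 106 and 114 to 205 and 198 (log2 change 0.87, SE 0.037, adjusted p 1.67e-11). The glucocorticoid-inducible genes Fkbp5 and Tsc22d3, which rise with Sgk1 under steroids in many cells, had log2 changes of 0.038 and 0.24 and did not pass. The metallothionein gene Mt1, which metals and steroids induce, rose from 50.2 and 51.7 to 67.2 and 61.6 (log2 change 0.33). In the SGK, AKT and FOXO list 7 of 33 fell (21.2%) and 2 rose (6.06%). Pik3cb, a lipid kinase subunit, fell by 0.24, and Foxo1 by 0.27, a call lost without the first inhibitor library, where 2 members fell. Gadd45g, a growth arrest gene, fell from 9.97 and 7.92 to 3.903 and 5.63 (log2 change -0.79, adjusted p 0.00068).

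Basement membrane genes rose more often than they fell, 46.2% of those tested against 3.85%. Of 26 tested matrix genes and receptors 12 rose and 1 fell, with a median log2 change of 0.15, and 9 to 14 rose with each library left out. The basement membrane is the sheet of collagen IV, laminin and nidogen under epithelia and around the early epiblast. Col4a2 rose from 49.3 and 63.3 to 97.2 and 89.3 (log2 change 0.73, adjusted p 1.28e-06) and Col4a1, which shares its promoter, rose from 154 and 182 to 269 and 245 (log2 change 0.61). All 3 chains of laminin-111 rose, Lama1 by 0.56, Lamb1 by 0.39 and Lamc1 by 0.26, and the nidogen genes Nid1 and Nid2 by 0.46 and 0.30. The integrin receptor genes Itgb1 and Itga6 did not pass, with log2 changes of 0.074 and -0.0090. The 1 that fell, Dag1, which encodes dystroglycan, did not pass without the first inhibitor library.

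Col4a1 and Lama1 are also markers of primitive endoderm, the layer that lays down this matrix. Of 15 such markers 8 had a mean of at least 1. Gata4 and Pdgfra had log2 changes of 0.11 and -0.015 and did not pass. In these bulk libraries a change in the number of cells of a type and a change in RNA per cell cannot be told apart.

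Of 28 neural cytoskeleton genes and microtubule proteins 7 rose (25%) and 3 fell (10.7%). Nefm, the medium neurofilament chain, rose from 9.67 and 9.94 to 23.9 and 24.1 (log2 change 1.21, SE 0.079, adjusted p 3.76e-09), and Nefl, the light chain, rose from 38.9 and 39.3 to 59.1 and 55.9 (log2 change 0.54, adjusted p 5.04e-07). The annotation has the 2 genes overlapping, so reads there cannot be told apart without strand. Tubb3, a neuronal tubulin, rose from 120.2 and 129 to 182 and 176 (log2 change 0.52), and Nes (nestin), a filament of neural progenitors, rose from 21.4 and 23.2 to 33.6 and 30.99 (log2 change 0.51). Crmp1, a microtubule regulator that GSK3 can phosphorylate, fell from 89.6 and 82.3 to 64.01 and 66.1 (log2 change -0.40). Of 20 neural transcription factors and markers, 9 had a mean of at least 1, and Sox1 and Pax6 did not pass, with log2 changes of -0.28 and 0.0046.

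Adhesion and boundary genes divided. Epcam, an epithelial adhesion molecule, fell from 140.1 and 126 to 98.1 and 103 (log2 change -0.40, adjusted p 1.63e-06) and Cldn6, a claudin, fell from 20.95 and 18.9 to 14.8 and 13.8 (log2 change -0.46). Cdh1 (E-cadherin), the adhesion partner of β-catenin, rose from 316 and 326 to 358 and 339 (log2 change 0.12, adjusted p 0.0162), a call lost without the first untreated or the first inhibitor library. Of 31 cadherins, catenins and ephrins 5 rose (16.1%) and 6 fell (19.4%), or 3 and 3 in a fit to the GSK3β line alone. Leaving out 1 of the 4 libraries left 1 to 6 that rose and 3 to 4 that fell, the fewest rises without the first untreated library.

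Heat shock and antioxidant genes leaned down. Of 28 heat shock genes 7 fell (25%) and 3 rose (10.7%), and of 30 NRF2 and antioxidant genes 7 fell (23.3%) and 3 rose (10%). Without the first untreated library 4 and 4 of them fell, and without the first inhibitor library 3 of the antioxidant genes did. Hspa1a, the inducible HSP70, fell from 6.99 and 6.53 to 4.34 and 3.38 (log2 change -0.68, adjusted p 0.000386), and its near-identical neighbour Hspa1b fell from 21.8 and 19.3 to 14.1 and 15.6, so reads may be split between the 2 copies. Hmox1, heme oxygenase, fell from 61.9 and 66.4 to 52.2 and 51.6 (log2 change -0.30), and Nqo1, a quinone reductase and NRF2 target, by 0.26. Nfe2l2, which encodes NRF2, rose by 0.15, a call lost without the first untreated or the second inhibitor library.

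Housekeeping machinery kept close to 0. Of 39 cytosolic ribosomal protein and elongation factor genes 1 rose and none fell, Eef2, by 0.13, a call lost with quantile normalization and without the first untreated or the first inhibitor library. Of 36 nuclear genes of oxidative phosphorylation 1 rose and 1 fell, and those calls, Cox5a and Uqcrfs1, were each lost without 1 or more libraries. Of 33 nucleolar genes of ribosome biogenesis 7 rose and none fell, with a median of 0.051, but 0 rose without the first inhibitor library and 2 without the first untreated or the second inhibitor library. Among 16 reference genes 2 rose and 1 fell, or 0 fell without the first untreated or either inhibitor library, and Actb, Gapdh and Tbp did not pass, with log2 changes of 0.070, 0.064 and 0.074.

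Markers of other cell types gave few calls. Of 14 fibroblast markers 6 had a mean of at least 1, and none of them passed. Of 11 trophoblast markers tested only Tfap2c rose (9.09%, against 7.49% of all genes). Of 17 markers of 2-cell-like cells 4 fell, all Zscan4 family genes with near-identical sequences, which the counting may split among copies, and 1 of them fell without the first untreated or the first inhibitor library. Of 9 mesendoderm markers Gsc, an organizer homeobox gene, and Evx1, a posterior homeobox gene, rose, from 0.86001 and 1.03 to 1.92 and 1.72 and from 0.704 and 0.705 to 1.68 and 1.24, and neither passed without the first untreated or the first inhibitor library, nor Gsc without the second inhibitor library or Evx1 without the second untreated library. Evx1 lay under the mean limit of 1 in the untreated libraries and Gsc close to it, so higher values elsewhere helped bring both among the tested genes. Eomes, with a log2 change of 0.19, did not pass.

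Some of the largest changes lay outside these pathways. Spic, an ETS factor, rose from 3.57 and 3.09 to 8.13 and 7.82 (log2 change 1.05, adjusted p 3.88e-06), and Sall3, a zinc-finger gene of the Sall family, rose from 30.5 and 34.1 to 59.5 and 60.3 (log2 change 0.87, adjusted p 2.5e-08). Its relative Sall2 fell, as given above, and Sall4 and Sall1 did not pass, with log2 changes of 0.089 and -0.047, though Sall4 passed as higher with median-of-ratios scaling. Pla2g7, a secreted phospholipase, rose from 3.83 and 4.84 to 9.85 and 8.53, and Platr13, a long noncoding RNA of embryonic stem cells, rose from 5.39 and 6.03 to 11.1 and 10.7 (log2 changes 0.94 and 0.83). Among the imprinted genes, Plagl1, a zinc-finger growth regulator, rose from 17.2 and 19.8 to 31.9 and 29.6 (log2 change 0.70), and Mest fell from 258 and 249.9 to 190.3 and 203 (log2 change -0.37). Of 40 imprinted genes 4 rose (10%) and 6 fell (15%), against 7.49% and 7.44% of all genes. The imprinted genes that rose and fell numbered 2 and 3 without the first inhibitor library.

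Further falls outside the pathways were of like size. Trim36, a ubiquitin ligase, fell from 12.8 and 13.2 to 6.89 and 7.39 (log2 change -0.78), Zc3h12a (Regnase-1), an RNase that degrades inflammatory messages, fell from 10.7 and 12.7 to 6.21 and 6.46 (log2 change -0.78), and Tnfsf11 (RANKL), a cytokine, fell from 6.72 and 6.09 to 3.39 and 3.04 (log2 change -0.81). Enpp3, an ectoenzyme that hydrolyses nucleotides, fell from 37.3 and 36.4 to 20.4 and 22.7 (log2 change -0.75, adjusted p 7.96e-08). The retinoic acid receptor genes Rara and Rarg fell by 0.43 and 0.47. In the Notch pathway, the ligand gene Dll1 fell from 6.22 and 6.66 to 3.42 and 4.31 (log2 change -0.62).

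**Figure D5:**
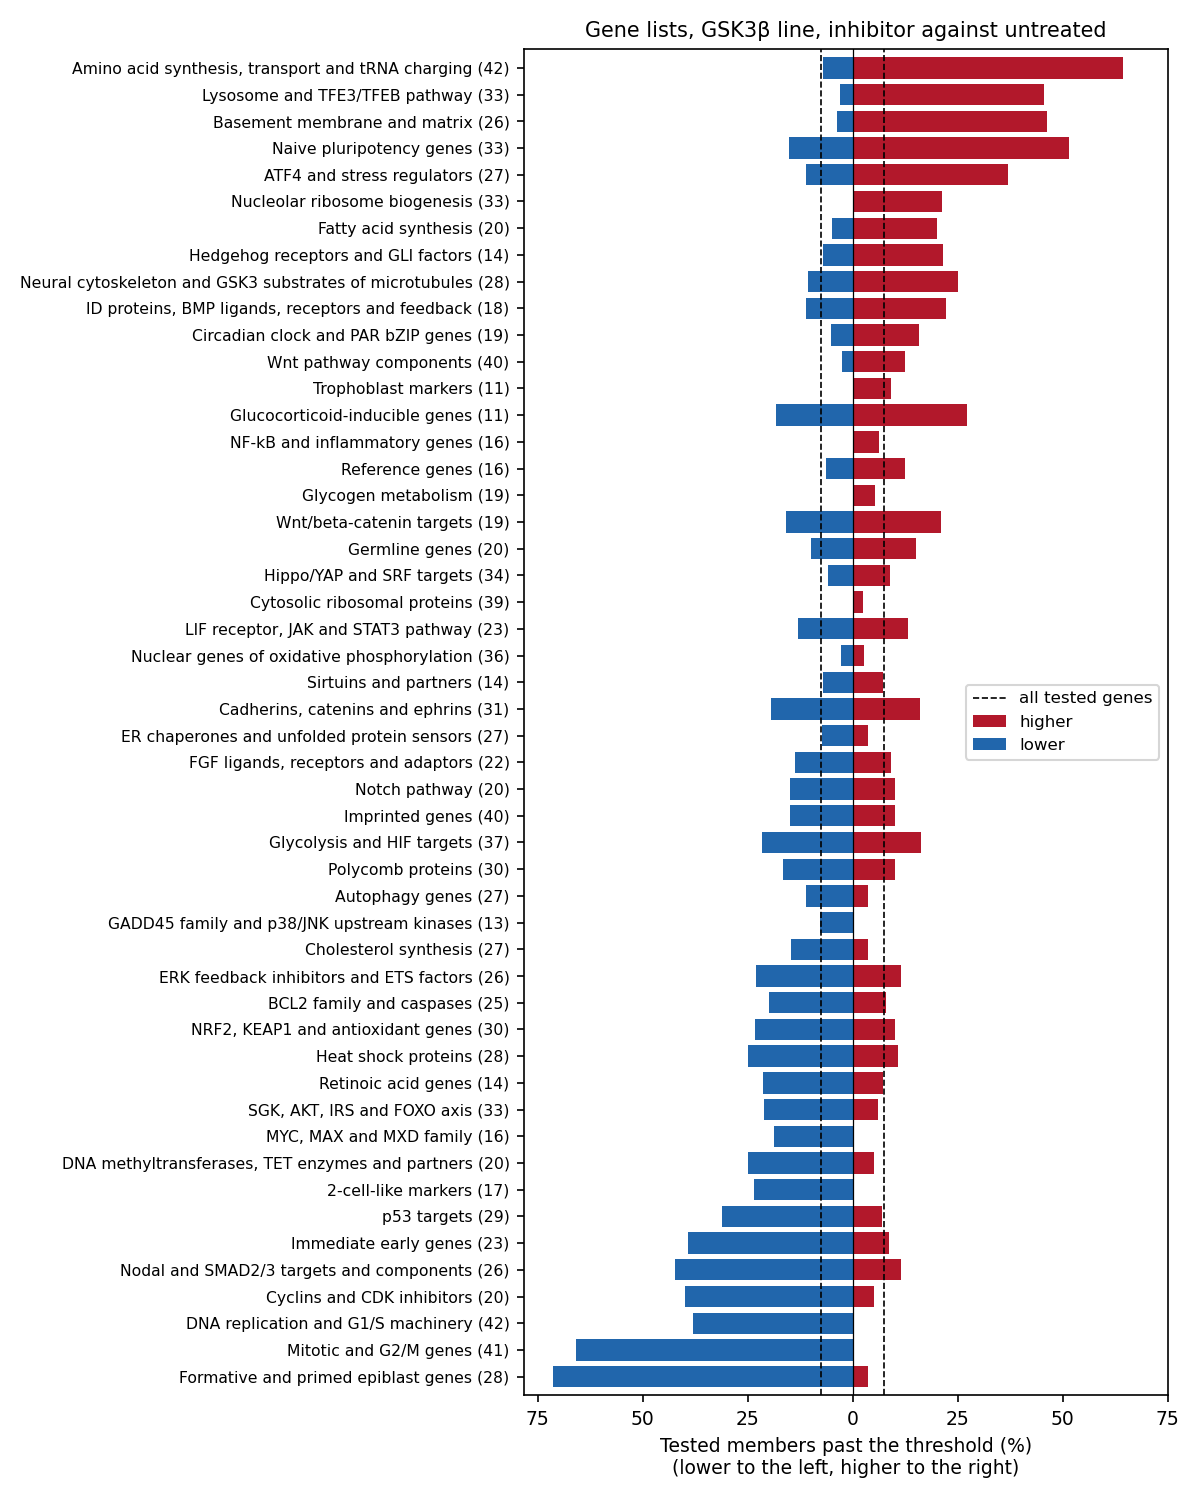
Bars cover each pathway and marker list with at least 10 tested members (number in brackets). The list of Spic, Sall3 and related genes and the lists formed after their values were seen are left out. The lists shown were themselves chosen with earlier results of these data known. The red bar is the percentage of tested members that rose and the blue bar, drawn to the left, the percentage that fell. Dashed lines mark the shares over all tested genes, 7.49% up and 7.44% down. Of the lists shown, amino acid genes lie at the top and formative genes, of which 20 of 28 fell, at the bottom.

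The largest differences in value were in pseudogenes that copy mitochondrial genes. Gm13340, a copy of mt-Co1 on chromosome 2, rose from 2017 and 1969 to 3197 and 3085 (log2 change 0.66, SE 0.036, adjusted p 5.04e-10). Of 10 tested pseudogenes whose transcripts match a mitochondrial gene over at least 100 bases at 95% identity or more, 9 rose. Gm28661, identical to mt-Co2 over 681 bases, rose from 1669.6 and 1598 to 2427 and 2409 (log2 change 0.57), and Gm28437, identical to mt-Co3 over 783 bases, rose from 2546 and 2536 to 2847 and 2883 (log2 change 0.17). Gm28438, a copy of mt-Nd3, had 366 and 328 in the untreated and 319 and 327 in the inhibitor libraries and did not pass (adjusted p 0.0876), though it passed as lower with quantile normalization, with limma-voom and without the second untreated library. The mitochondrial genes themselves are listed without values, so reads of these copies and of the mitochondrial genes cannot be told apart, and whether the rise lies in nuclear or mitochondrial RNA was not tested.

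The share of genes called went with the level, on which the SE also depends. With the genes in 4 equal groups by mean value, 2.92% rose and 3.47% fell in the lowest group, and in the highest 13.3% rose and 10.8% fell, while the median SE went from 0.132 to 0.036. The length of the gene on the chromosome made less difference, with 5.86% rising in the shortest of 4 such groups and 8.32% in the longest.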

How the data were processed

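RNA from the 8 libraries was sequenced, and the authors deposited 1 table of gene signal values. The submitters' processing notes name TopHat2, Partek and the build mm10. The deposited values are signal, gene counts scaled so that the third quartile is equal in every library, and 63.5% to 67.6% of low values (up to 20 reads) were whole reads within 0.1, so no count test was run. In limma 3.58.1 (R 4.3.3), log2(value + 1) was fitted with 1 mean for each of the 4 groups over all 8 libraries, with a trended variance, and the GSK3β contrast was tested (two-sided, Benjamini-Hochberg, threshold 0.05) over genes with values in all 8 libraries and a mean of at least 1. A fold change on this scale understates the change of low genes. Named genes were 10 chosen genes, the 20 largest rises and falls with a group mean of at least 5, up to 6 members past the threshold from each list, the 10 largest differences and the 10 smallest p-values. Other list members and genes that did not pass were named to show the rest of a pathway. Members and the 57 lists were chosen with earlier results of these data known. Pseudogenes were matched to mitochondrial transcripts with blastn 2.17.0. The fit was tested on simulated data. Alternatives were the pseudocount, the limit on the mean, the scaling, limma-voom, the GSK3β libraries alone, a replicate block and leaving out each library. A few genes that the rule for named genes reached are not reported here.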

Additional observations from a re-analysis of the deposited data

Results flagged for a closer look

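Cdx2 and Dkk1, both known Wnt targets, had means below 1 over the 8 libraries and so stood outside the genes tested, yet both differed from the untreated cells when the limit on the mean was dropped. Cdx2, a homeobox factor of trophoblast and posterior mesoderm, went from 0.195 and 0.321 to 2.43 and 3.27 (log2 change 1.61, adjusted p 1.28e-07, limma over all 17488 genes with values). Dkk1, a secreted Wnt antagonist, went from 0.156 and 0.256 to 1.23 and 1.35 (log2 change 0.93, adjusted p 5.37e-05). In both genes the inhibitor libraries lay above the untreated ones. These 2 were the members of the gene lists among 29 genes that were higher and 16 that were lower under that setting while under the limit. At such values the log2(value + 1) scale understates the change, and each untreated value rests on few reads.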

How the results depend on the processing

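The count of genes that rose ran from 443 to 1153 and the count that fell from 421 to 1126 when 1 library was left out, where a lone library is assumed to vary like the other groups. The lowest counts came without the first inhibitor library and, at 610 and 571, without the first untreated library. The cause was not tested. Under the other alternatives the counts were 950 to 1157 up and 927 to 1342 down, and no gene that passed here passed in the opposite direction under any of the 17. Of 183 genes named in the text that passed, 158 lost the call under none of the alternatives that tested them. The mean limit of 5 tested 216 of the 243 named genes. The same replicate number did not pair libraries, with a correlation of same-number deviations of -0.045, and a replicate block gave 950 up and 927 down and ended the calls of 3 named genes, Eef2, Fgfr1 and Mxd3.

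The genes whose sign turned had all missed the threshold. With 1 library left out their log2 changes spanned Apc -0.024 to 0.069, Cdh2 -0.0090 to 0.067, Eif2ak2 -0.16 to 0.049, Eif2ak3 -0.036 to 0.015, Eif2ak4 -0.020 to 0.070, Fgfr2 -0.12 to 0.18, Fos -0.27 to 0.078, Frs2 -0.038 to 0.028, Gsk3b -0.016 to 0.11, Gys1 -0.071 to 0.010, Hspa5 -0.039 to 0.0084, Itga6 -0.028 to 0.0097, Lifr -0.033 to 0.011 and Mcm2 -0.050 to 0.0063. The rest spanned Mcm4 -0.0054 to 0.039, Pax6 -0.10 to 0.11, Pdgfra -0.092 to 0.063, Sall1 -0.10 to 0.0080, Slc7a11 -0.025 to 0.21, Socs3 -0.13 to 0.13, Sox11 -0.31 to 0.074, Spred1 -0.026 to 0.024, Spry1 -0.037 to 0.00059, T -0.0045 to 0.28, Trp53 -0.036 to 0.073, Uhrf1 -0.031 to 0.0085 and Zfp42 -2.69e-05 to 0.079. Signs also turned with median-of-ratios scaling (Frs2 0.0020, Socs3 0.0022 and Spred1 0.0060), limma-voom (Pax6 -0.022) and quantile normalization (Socs3 0.00016).

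Precision was limited by 2 libraries a group and 4 residual degrees of freedom. The smallest called log2 change was 0.086. For genes under a mean of 5.89 the median SE was 0.132. Many low values did not return to whole reads, so intervals on counts are not given.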

Other observations

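Host genes of small nucleolar RNAs, a list chosen after their values were seen, leaned upward. Their spliced transcripts decay quickly when they are translated, and their introns hold the small RNAs that guide ribosomal RNA modification. Of 16 tested, 9 rose and none fell, against 7.49% and 7.44% of all genes, with a median log2 change of 0.19. Snhg5 rose from 53.6 and 53.02 to 72.6 and 69.1, Gas5 from 63.1 and 54.6 to 73.8 and 70.5 and Zfas1 from 33.7 and 31.9 to 42.8 and 39.8 (log2 changes 0.40, 0.29 and 0.32, limma adjusted p 1.12e-06, 0.00045 and 0.000106). The count that rose was 8 without the first untreated and 6 without the first inhibitor library. Platr transcripts, long noncoding RNAs named for their link to pluripotency, were also grouped after their values were seen. Of 21 tested, 2 rose, Platr13 and Platr15, and 4 fell, against 7.49% and 7.44% of all genes. Without the first untreated or the second inhibitor library 1 fell. Platr15 went from 21.3 and 24.4 to 39.2 and 36.8 (log2 change 0.72).

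Cholesterol synthesis gave 1 rise and 4 falls among 27 genes, Hippo/YAP and SRF targets 3 and 2 among 34, polycomb proteins 3 and 5 among 30, and circadian clock genes 3 and 1 among 19. Over all tested genes 7.49% rose and 7.44% fell, and of the Hippo/YAP targets 8.82% and 5.88%. With each of the 4 libraries left out, the rises and falls numbered 1 to 4 and 1 to 8 for cholesterol, 2 to 6 and 1 for Hippo/YAP, 1 to 3 and 2 to 6 for polycomb and 0 to 3 and 1 for the clock. The highest cholesterol counts and Hippo/YAP rises came without the second untreated library, and the lowest cholesterol, polycomb and clock counts without the first inhibitor library, the polycomb rises also without the first untreated or the second inhibitor library. Kit, the receptor of germ and blood stem cells, rose from 54.4 and 57.7 to 94.1 and 88.7 (log2 change 0.70, limma adjusted p 4.32e-09). Tead4, the TEAD factor of trophoblast, rose from 27.99 and 32.1 to 40.6 and 37.8 (log2 change 0.37). Of 257 processed pseudogenes 16 rose (6.23%) and 6 fell (2.33%), both below the shares of all tested genes, 7.49% and 7.44%.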
